A study of Ovis aries with 15 samples.

Results

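The genes described here encode the enzymes of the urea cycle and of arginine and creatine synthesis: NAGS, CPS1, OTC, ASS1, ASL, ARG1, ARG2, GATM and GAMT. They were chosen by name, and all 9 were among the 25592 genes of the deposited table. Expression was measured by RNA sequencing in 15 libraries from male Dorper and Small-tailed Han crossbred sheep aged 4 months, all kept on a total mixed ration for 21 days. The 5 CON libraries came from sheep given the ration alone. The AFB1 group (5 libraries) was fed 500 µg of aflatoxin B1, a mould toxin, in each kg of dry matter. The AFB1_CUR group (5 libraries) was fed that dose of aflatoxin B1 together with 800 mg of curcumin (CUR), the turmeric pigment, in each kg. Each group of the study held 6 sheep, of which 5 are represented, and nothing in the labels says that animals were pooled. No library received curcumin without aflatoxin B1, so the groups do not separate an effect of curcumin by itself.

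The urea cycle is complete in hepatocytes. NAGS makes the obligatory activator of CPS1, CPS1 joins ammonia and bicarbonate into carbamoyl phosphate in the mitochondrion, OTC passes it to ornithine to give citrulline, ASS1 and ASL turn citrulline into arginine in the cytosol, and ARG1 splits arginine into urea and ornithine. The kidney is known for a partial version of this route: its proximal tubule takes up circulating citrulline, makes arginine with ASS1 and ASL, and with GATM begins creatine synthesis, which GAMT completes mainly in the liver, while ARG2 is the mitochondrial arginase outside the liver.

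The 15 libraries held 50255295 to 68747047 counts each. All were labelled as kidney, but AFB1 replicate 1 did not carry kidney markers. Its mean log2(FPKM + 1), where FPKM is a read level corrected for gene length and library size, was 10.23 over 23 hepatocyte genes, against 1.80 to 2.93 in the other 14 libraries. Over 7 proximal tubule genes the same score was 0.74 against 6.70 to 8.29, for 9 markers of Henle's loop and the collecting duct it was 0.54 against 5.62 to 6.66, and for 4 podocyte genes 0.33 against 4.16 to 5.33. Of the 23 hepatocyte genes, 22 lay over 2-fold above the highest of the other libraries, and all 7 proximal tubule genes lay over 2-fold below the lowest. That library is therefore shown apart below, and the groups were compared over the other 14 libraries. Among the 14, the score over 5 leukocyte genes was 4.04 in AFB1 replicate 2 and 4.82 in AFB1_CUR replicate 2, against 1.29 to 2.60 in the rest. In pieces of whole tissue, fewer cells of a type and less RNA per cell cannot be told apart.

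In the 14 libraries with kidney markers, the arginine-making pair and the creatine-making pair were abundant and the first steps of the cycle were nearly empty. By median FPKM, which is a level per gene length, the order was ASS1 (704), GATM (127), GAMT (126), ASL (73.7), ARG2 (12.1), NAGS (3.28) and ARG1 (0.130), with CPS1 and OTC at a median of 0. ASS1 exceeded GATM, ASL exceeded ARG2, and NAGS exceeded ARG1 in 14 of 14 libraries, and the ranges of each of these neighbours did not overlap. GAMT exceeded ASL, and ARG2 exceeded NAGS, in 13 of 14 libraries with overlapping ranges. GATM and GAMT could not be ordered, since GATM was the higher in 5 of 14.

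**Figure D1:**
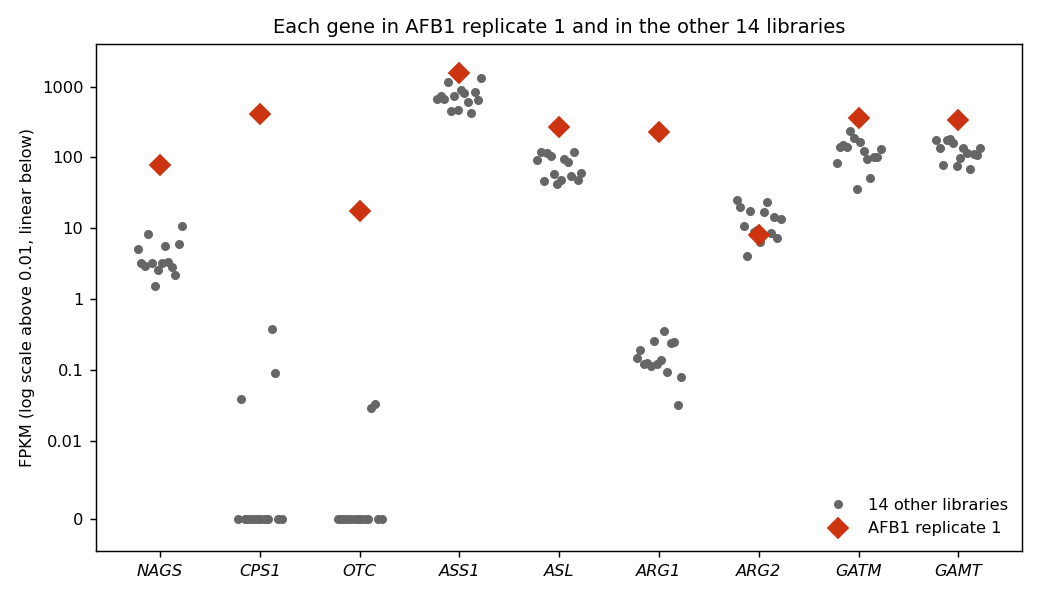
FPKM of the 9 genes (horizontal axis) in AFB1 replicate 1 (red diamonds) and in each of the other 14 libraries (grey points), on an axis that is logarithmic above 0.01 and linear below it. CPS1 is at 412, OTC at 17.6 and ARG1 at 231 in AFB1 replicate 1 and under 1 in the others, whereas ARG2 at 7.94 lies among the other libraries.

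NAGS, the N-acetylglutamate synthase that switches CPS1 on, lies on chromosome 11 (43604205 to 43609893, plus strand) in the coordinates of the deposited table, which equal those of the sheep assembly ARS-UI_Ramb_v3.0 for all 9 genes. Its FPKM in CON replicates 1 to 5 was 5.04, 3.29, 2.90, 8.24 and 3.26. In AFB1 replicates 2 to 5 it was 2.82, 2.19, 5.92 and 10.6, and in AFB1_CUR replicates 1 to 5 it was 1.53, 2.54, 3.27, 5.66 and 3.36. The 3 groups overlapped, and the highest library of all was AFB1 replicate 5. NAGS had the widest relative spread of the 6 genes that could be tested, with a coefficient of variation of 58.7% over the 14 libraries.

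CPS1, carbamoyl phosphate synthetase, lies on chromosome 2 (212172844 to 212364377, plus strand). It had no reads in 11 of the 14 libraries, which included all 5 AFB1_CUR libraries. A count of 0 allowed up to 3 counts, or 0.0436 to 0.0597 CPM (counts scaled to a common library size) depending on the library, and these limits cover counting error only. The libraries with reads were CON replicate 2 (17 counts, FPKM 0.0390), AFB1 replicate 2 (136 counts, FPKM 0.373) and AFB1 replicate 3 (40 counts, FPKM 0.0911). OTC, ornithine transcarbamylase, on chromosome X (37890536 to 37971494, plus strand), was at 0 in 12 of the 14, and its only reads were 24 counts in AFB1 replicate 2 and 32 in AFB1 replicate 3.

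The 3 libraries in which CPS1 or OTC had reads also had the most reads of albumin (ALB), the main plasma protein of hepatocytes. ALB had 2846 counts in AFB1 replicate 2, 1656 in AFB1 replicate 3 and 626 in CON replicate 2, and 0 to 537 in the other 11. Relative to AFB1 replicate 1 and per total count, AFB1 replicate 2 held 0.0934% of its ALB, 0.0914% of its CPS1 and 0.170% of its OTC. AFB1 replicate 3 held 0.0462% of its ALB, 0.0229% of its CPS1 and 0.193% of its OTC. The hepatocyte scores of AFB1 replicates 2 and 3 were the highest of the 14, at 2.93 and 2.71 against 1.80 to 2.59 in the rest, with 0 of 23 hepatocyte genes at 0 in both, which also held for CON replicate 1. By the summed CPM of the same genes, these 2 libraries were at 1341 and 2415, inside the 944 to 2985 of the 14. The list is not free of kidney reads, since HPD had a median of 84072.5 counts in the 14. The part of hepatocyte transcripts in the CPS1 and OTC reads was not tested. ARG1 had reads in all 14 libraries. Relative to AFB1 replicate 1, its share in the AFB1 group was 0.104% and 0.110% in replicates 2 and 3, which had the most ALB, and 0.0148% and 0.0350% in replicates 4 and 5, which had 26 and 6 ALB counts. In CON the highest shares were also in the libraries with the most ALB, at 0.0827% in replicate 2 and 0.0657% in replicate 1 (537 ALB counts), against 0.0497% to 0.0555% in the other 3. In AFB1_CUR the highest share was 0.157% in replicate 4, which had 42 ALB counts, followed by 0.113% in replicate 1 (157 ALB counts) and 0.0411% to 0.0614% in the other 3, which had 0 to 152. CPS1 and OTC were left out of the group tests because they did not reach an FPKM of 1 in 4 of the 14 libraries.

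ASS1, argininosuccinate synthase, on chromosome 3 (6091602 to 6143739, minus strand), was the most abundant of the 9 genes in each of the 14 libraries. Its FPKM was 673, 736, 661, 1161 and 455 in CON replicates 1 to 5, 425, 827, 645 and 1333 in AFB1 replicates 2 to 5, and 748, 466, 894, 811 and 598 in AFB1_CUR replicates 1 to 5. The lowest and the highest of the 14 values both belonged to the AFB1 group, in replicates 2 and 5. By itself ASS1 took 0.0751% to 0.236% of all counts in a library, and the 9 genes together took 0.108% to 0.299%.

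ASL, argininosuccinate lyase, on chromosome 24 (28476259 to 28485288, minus strand), completes arginine from the product of ASS1. Its FPKM was 91.7, 119.5, 46.9, 116.0 and 104.0 in CON replicates 1 to 5, 54.5, 119.7, 48.0 and 61.0 in AFB1 replicates 2 to 5, and 58.8, 42.2, 48.2, 94.5 and 86.5 in AFB1_CUR replicates 1 to 5. Of the CON libraries, 4 of 5 lay above 90, and CON replicate 3 lay among the lowest of all. The ratio of ASS1 to ASL, both in FPKM, ran from 4.38 in CON replicate 5 to 21.9 in AFB1 replicate 5, with a median of 9.29.

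ARG1, the cytosolic arginase of liver, on chromosome 8 (56992934 to 57008252, plus strand), was barely detected. It had 6 to 65 counts per library and an FPKM of 0.0323 to 0.360 over the 14 libraries, so it was not tested. Its group ranges overlapped, at 0.115 to 0.189 in CON, 0.0323 to 0.251 in AFB1 and 0.0940 to 0.360 in AFB1_CUR.

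ARG2, the mitochondrial arginase, on chromosome 7 (77562208 to 77602006, plus strand), was the main arginase transcript of the 14 libraries. Its FPKM was 24.8, 19.8, 10.7, 4.08 and 17.7 in CON replicates 1 to 5, 8.46, 14.4, 7.33 and 13.5 in AFB1 replicates 2 to 5, and 8.82, 9.34, 6.44, 17.1 and 23.9 in AFB1_CUR replicates 1 to 5. The CON group held both the lowest and the highest of these values. The ratio of ARG1 to ARG2 in FPKM was 0.00394 to 0.0303.

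GATM, the amidinotransferase that turns arginine and glycine into guanidinoacetate, lies on chromosome 7 (63227242 to 63243083, plus strand). Its FPKM was 84.2, 142, 149, 142 and 233 in CON replicates 1 to 5, 51.8, 102, 101 and 133 in AFB1 replicates 2 to 5, and 190, 36.4, 168, 121 and 95.6 in AFB1_CUR replicates 1 to 5. The lowest libraries were AFB1_CUR replicate 2 and AFB1 replicate 2, which were also those with the highest leukocyte scores, and the part of leukocytes in these values was not tested.

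GAMT, which methylates guanidinoacetate to creatine, lies on chromosome 5 (41489618 to 41492658, minus strand). Its FPKM was 176, 135, 78.4, 179 and 181 in CON replicates 1 to 5, 69.04, 112, 109 and 135 in AFB1 replicates 2 to 5, and 158, 76.8, 98.3, 137 and 117 in AFB1_CUR replicates 1 to 5. The same 2 libraries were again the lowest, with CON replicate 3 next to them. The ratio of GATM to GAMT was 0.474 to 1.898.

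**Figure D2:**
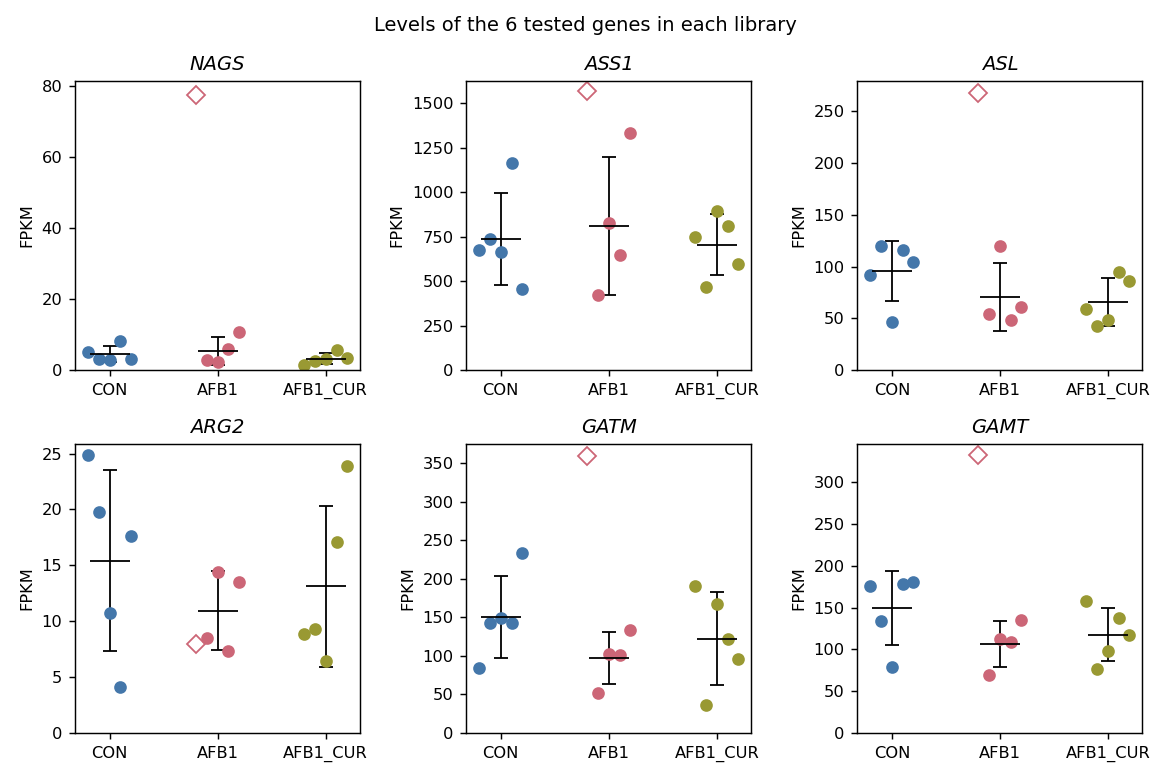
FPKM (vertical axes, from 0) of the 6 genes that could be tested, by group. Filled points are libraries, the bar and whiskers give the mean and SD without AFB1 replicate 1, and the open diamond is AFB1 replicate 1, which lies above all other libraries for NAGS, ASS1, ASL, GATM and GAMT and at 7.94 among them for ARG2.

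The comparison of AFB1 with CON asks which genes differ after feeding of the toxin. GATM was lower in mean, at 97.0 ± 33.7 FPKM in AFB1 (SD, n = 4) against 150 ± 53.1 in CON (SD, n = 5), and so were GAMT, at 106 ± 27.3 against 150 ± 44.2, and ASL, at 70.8 ± 33.0 against 95.6 ± 29.4. None of these differences passed the test. A gene was called where the unadjusted p of edgeR's quasi-likelihood test was under 0.05 and the fold change above 1.5. By this rule 0 of the 6 tested genes were called, where 1.78% of all 13394 tested genes were (0.672% higher and 1.1% lower in AFB1). The log2 fold changes were -0.60 for GATM (SE 0.45, 95% confidence interval -1.56 to 0.35, edgeR unadjusted p = 0.197), -0.48 for GAMT (SE 0.31, interval -1.14 to 0.17) and -0.44 for ASL (SE 0.34, interval -1.17 to 0.28). They were -0.48 for ARG2 (SE 0.47), 0.16 for ASS1 (SE 0.36) and 0.28 for NAGS (SE 0.51). The median of the 6 was -0.46, against 0.02 over all tested genes. With these intervals, a change of 1.5-fold in either direction lay within reach for ASS1 and NAGS and a fall of that size for the other 4, and the test does not show that the groups were alike. With Benjamini-Hochberg adjustment edgeR called 0% of all genes (670 at an unadjusted p under 0.05), while limma called 0 genes and DESeq2 called 19, none of which was among the 6. In FPKM, 0 of the 6 genes had groups without overlap, where 1.53% of all tested genes did.

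AFB1 replicate 1 decided how this comparison came out. With all 15 libraries NAGS was called higher in AFB1, with a log2 fold change of 2.72 (SE 0.98, edgeR unadjusted p = 0.0143, Benjamini-Hochberg adjusted p = 0.575), and the AFB1 mean of 19.8 ± 32.4 FPKM (SD, n = 5) rested on 77.5 in that library. The estimates for ASL, GATM and GAMT turned from lower to higher, at 0.60, 0.40 and 0.39, and the median of the 6 went from -0.46 to 0.50. Leaving out another library also moved single calls. Without CON replicate 3, GAMT was called lower in AFB1 (log2 fold change -0.65), and without AFB1 replicate 3, ASL was (log2 fold change -0.79). Without AFB1 replicate 5 the estimates for NAGS and ASS1 became -0.36 and -0.27. Median proximal tubule scores were 7.64 in CON (7.31 to 8.29) and 6.97 in AFB1 (6.73 to 8.18), and the part of this difference in the GATM, GAMT and ASL values was not tested.

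The comparison of AFB1_CUR with AFB1 asks which genes differ once curcumin is added to the toxin. NAGS had the largest estimate, at 3.27 ± 1.52 FPKM in AFB1_CUR (SD, n = 5) against 5.39 ± 3.85 in AFB1 (SD, n = 4). Its log2 fold change of -0.83 (SE 0.51, 95% confidence interval -1.93 to 0.27, edgeR unadjusted p = 0.126) did not pass the test. Here 0 of the 6 genes were called, where 0.993% of all tested genes were (0.448% up and 0.545% down with curcumin). The other log2 fold changes were -0.28 for ASS1 (SE 0.36), -0.14 for ASL (SE 0.34), 0.19 for ARG2 (SE 0.47), 0.27 for GATM (SE 0.44) and 0.08 for GAMT (SE 0.30). The median of the 6 was -0.03, against 0.00 over all tested genes. With Benjamini-Hochberg adjustment edgeR called 0% of all genes (311 at an unadjusted p under 0.05), limma called 0 and DESeq2 called 3, none of them among the 6. None of the 6 genes had groups without overlap, where 0.679% of all tested genes did. Without AFB1_CUR replicate 4 or AFB1 replicate 3, NAGS was called lower in AFB1_CUR, at log2 fold changes of -1.16 and -1.11. With all 15 libraries it was called lower at -3.25 (edgeR unadjusted p = 0.00559, Benjamini-Hochberg adjusted p = 0.776), again through AFB1 replicate 1, and the estimates for GATM and GAMT turned to -0.72 and -0.79, with a median of the 6 of -0.79 instead of -0.03.

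The comparison of AFB1_CUR with CON sets sheep given both feeds against the untreated ones. All 6 estimates were lower in AFB1_CUR and none passed the test. ASL came nearest, at 66.1 ± 23.3 FPKM in AFB1_CUR against 95.6 ± 29.4 in CON (SD, n = 5 each), and its log2 fold change was -0.59 (SE 0.32, 95% confidence interval -1.27 to 0.09, edgeR unadjusted p = 0.0857, Benjamini-Hochberg adjusted p = 0.816). Without CON replicate 3 or AFB1_CUR replicate 4 it was called lower, at -0.76 and -0.78. The other log2 fold changes were -0.55 for NAGS (SE 0.49), -0.41 for GAMT (SE 0.29), -0.33 for GATM (SE 0.42), -0.29 for ARG2 (SE 0.44) and -0.13 for ASS1 (SE 0.34). The estimate for ASS1 was 0.12 without CON replicate 4 and 0.02 without AFB1_CUR replicate 2. Their median was -0.37, against 0.00 over all tested genes, of which 1.75% were called (1.12% up and 0.635% down in AFB1_CUR). With Benjamini-Hochberg adjustment edgeR called 0% of all genes (747 at an unadjusted p under 0.05), limma called 0 and DESeq2 called 2, none of them among the 6. None of the 6 had groups without overlap, where 0.732% of all tested genes did. This comparison shares the CON libraries with the first and the AFB1_CUR libraries with the second.

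**Figure D3:**
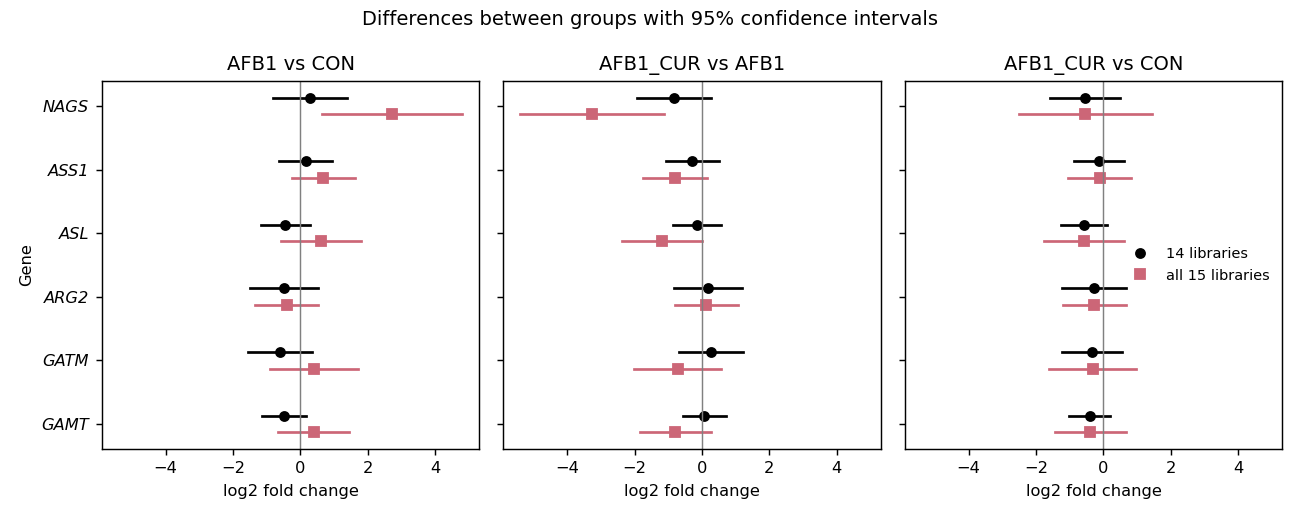
Log2 fold changes (horizontal axes) of the 6 tested genes (vertical axis) in the 3 comparisons, with 95% confidence intervals from edgeR. Black circles are from 14 libraries and every interval holds 0, while red squares are from all 15 libraries, where the intervals of NAGS leave 0 at 2.72 and -3.25.

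AFB1 replicate 1, with its hepatocyte markers, held the full cycle. There the order of levels by FPKM was ASS1 (1566), CPS1 (412), GATM (359), GAMT (333), ASL (267), ARG1 (231), NAGS (77.5), OTC (17.6) and ARG2 (7.94). The 9 genes took 0.849% of its counts (Wilson 95% interval 0.846% to 0.851%, which covers counting error only), and CPS1 alone took 0.278%. OTC had 14756 counts there, and its counts and FPKM together imply a gene length of 15.0 kb, against 1.06 to 6.74 kb for the other 8 genes, so its FPKM is low beside its counts. This is 1 library with no replicate and with the label of an AFB1-fed sheep, so it gives no test, and organ and animal cannot be told apart.

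Among the 9 genes, CPS1, ARG1 and OTC set that library apart most. CPS1 was 1105-fold above the highest of the other 14 libraries in FPKM, ARG1 643-fold with 42247 counts, OTC 531-fold, NAGS 7.29-fold and ASL 2.23-fold. Of these, CPS1, OTC and ARG1 reached an FPKM of 1 in that library alone, so a count that includes them says nothing about how often genes stood this far above. Of the 6 genes tested in the 14 libraries, 2 lay over 2-fold above the highest of the 14 (NAGS and ASL), where 3.29% of the 13394 tested genes were that far above and 24.5% were that far below the lowest. GAMT, GATM and ASS1 also exceeded every other library, by 1.84-fold, 1.54-fold and 1.18-fold. ARG2 lay inside the range of the 14, at 7.94 within 4.08 to 24.8, and none of the 9 genes lay below the range.

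The scale matters for GATM and GAMT. In CPM scaled by TMM, which corrects for a few abundant genes taking much of a library, they stood 2.17-fold and 2.57-fold above the highest of the 14, which makes 4 of the 6 tested genes. On that scale 5.66% of the 13394 tested genes were over 2-fold above and 16.6% over 2-fold below. The median tested gene stood at -0.58 in AFB1 replicate 1 relative to the median of the 14 on log2(FPKM + 1), and at -0.21 on the TMM scale. ARG2 stayed inside the range, and ASS1 was at 3937 against a highest value of 2632. The ratio of ARG1 to ARG2, which needs no scaling between libraries, was 29.1 there against at most 0.0303 elsewhere, and the ratios of ASS1 to ASL (5.86) and of GATM to GAMT (1.08) lay inside the ranges of the 14.

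The other genes of these pathways were described from a list of 55, of which 51 were in the table and 43 could be tested. In AFB1 replicate 1 the mitochondrial carriers split. SLC25A13, the aspartate and glutamate carrier (citrin) that supplies ASS1 in liver, was at 54.9 FPKM against 11.0 to 23.0 in the 14. SLC25A12, its counterpart outside liver, was at 1.04 against 4.84 to 9.13. SLC25A22 and SLC25A29 were also over 2-fold above. SLC25A15, the ornithine carrier and the most abundant carrier in the 14 libraries (median 40.1), was at 9.81 against 18.2 to 66.4, which is below the range by less than 2-fold.

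In ammonia and bicarbonate supply, GLS2, which releases ammonia from glutamine in liver, was at 86.9 FPKM against 0.419 to 4.31. CA5A, the mitochondrial carbonic anhydrase that makes bicarbonate for CPS1, was at 6.23 against 0 to 0.0252. GLUD1, glutamate dehydrogenase, was the most abundant of this group in the 14 libraries (median 135) and was at 328, inside their range.

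Among the enzymes of citrulline, ornithine and proline, 1 of 8 was beyond 2-fold: OAT, ornithine aminotransferase, at 7.83 against 27.9 to 102. ALDH4A1 was the most abundant of them (median 253). In arginine use, AGMAT lay over 2-fold above and NOS2 and DDAH2 over 2-fold below, and the most abundant gene, ODC1, the first enzyme of polyamine synthesis, was within the range at 28.3 against 25.7 to 33.5.

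Transport showed the largest fall. SLC3A1, the heavy subunit of the apical cystine and dibasic amino acid exchanger, was at 0.0414 in AFB1 replicate 1 and at 47.1 to 210.2 in the 14. SLC7A7, the basolateral exporter of cationic amino acids and the most abundant transporter on the list (median 382), was at 6.05 against 149 to 560, while the liver transporter SLC7A2 was at 17.4 against 0.512 to 1.86. The urea transporters SLC14A1 and SLC14A2 were at or near 0 in most libraries, with medians of 0.0725 and 0.0755 in the 14, and could not be tested.

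In the methyl supply to creatine, MAT1A, the liver methionine adenosyltransferase, showed the largest rise, at 315 against 0.111 to 1.03. MAT2B, a subunit of the form outside liver, was over 2-fold below. AHCY was the most abundant of this group (median 379). Of the creatine transporter and kinases, SLC6A8, which carries creatine into cells, was at 2.29 against 20.1 to 45.7, and CKB was the most abundant (median 51.5). Of the regulators known from liver, CEBPA, CEBPB and FOXA2 were over 2-fold above, while HNF4A, the most abundant in the 14 (median 55.5), was inside the range at 52.9. Of the 43 genes of the list that were tested in the 14 libraries, 8 were over 2-fold above the other libraries and 9 over 2-fold below, beside 3.29% and 24.5% of all tested genes. On the TMM scale they were 11 and 7, beside 5.66% and 16.6%. MAT1A, CA5A and FOXA2 are not among the 43, and CA5A and FOXA2 reached an FPKM of 1 in AFB1 replicate 1 alone.

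**Figure D4:**
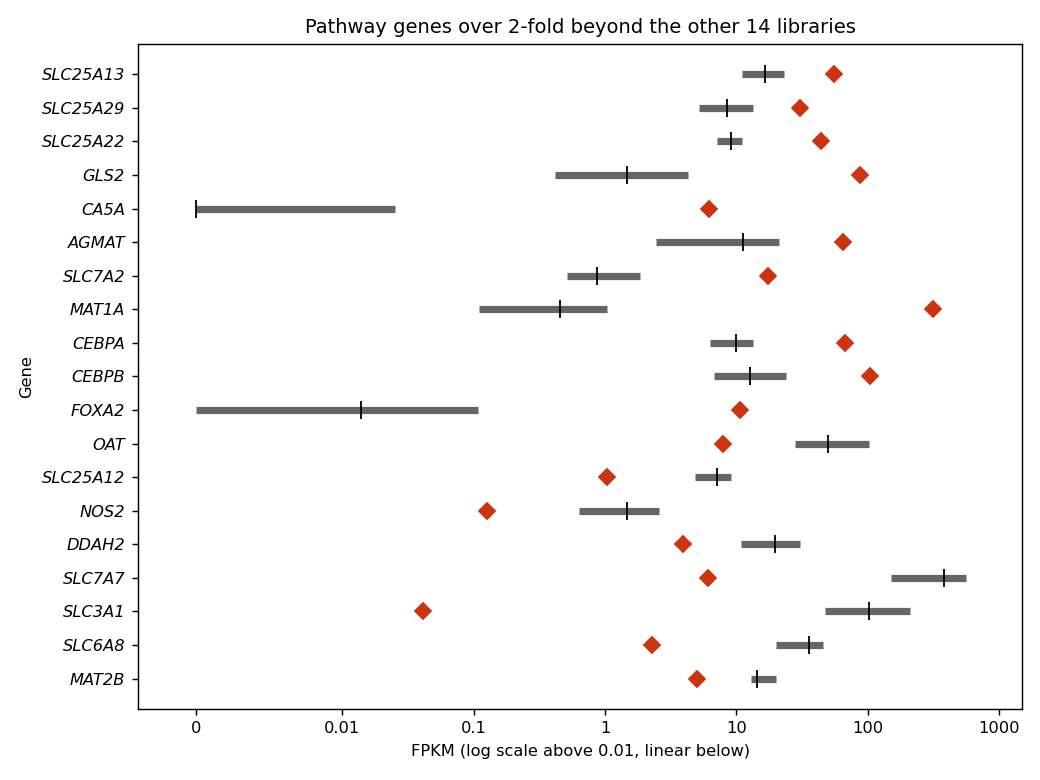
FPKM (horizontal axis, logarithmic above 0.01 and linear below it) of 19 pathway genes that lay over 2-fold beyond the other libraries in AFB1 replicate 1. Grey bars span the 14 other libraries with a tick at their median, and red diamonds are AFB1 replicate 1, which lies above the bars for 11 genes (MAT1A at 315) and below them for 8 (SLC3A1 at 0.0414).

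The list was also compared between the groups of the 14 libraries. In AFB1 against CON, 0 of 43 genes were called higher and 1 lower, where 0.672% and 1.1% of all tested genes were, and the median log2 fold change was -0.06. For AFB1_CUR against AFB1 the counts were 0 and 1, where the shares of all tested genes were 0.448% and 0.545%, with a median of -0.13, and in AFB1_CUR against CON they were 0 and 0, beside 1.12% and 0.635%, with a median of -0.09. Over all tested genes the median was 0.016 in AFB1 against CON and within 0.01 of 0 in the other comparisons. AFB1 replicate 1 changed these counts. With all 15 libraries, 8 genes of the list were called higher and 1 lower in AFB1 against CON, where 4.02% and 0.978% of all tested genes were, and 0 were called higher and 10 lower in AFB1_CUR against AFB1, where 0.62% and 3.43% were. Without AFB1 replicate 5 the counts in AFB1 against CON were 1 higher (CKB) and 3 lower (HNF4A, SLC3A2 and SLC7A9). The shares of all tested genes were then 1.65% and 1.86%. In AFB1_CUR against CON, 2 genes were called lower with the replicate number as a block (SLC7A7 and SLC7A9), where 0.776% of all tested genes were. Leaving out a library gave 0 or 1 called lower, where 0.56% to 1.02% of all tested genes were.

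The gene called in AFB1 against CON was SLC7A9, the light subunit that pairs with SLC3A1. Its FPKM was 39.5, 28.8, 26.2, 43.6 and 70.5 in CON replicates 1 to 5 and 16.1, 24.0, 23.1 and 29.3 in AFB1 replicates 2 to 5, so the groups overlapped. The log2 fold change was -0.84 (SE 0.39, edgeR unadjusted p = 0.0493, Benjamini-Hochberg adjusted p = 0.957). The call was lost when CON replicate 1, 4 or 5 or AFB1 replicate 2, 3 or 4 was left out, with values of -0.57 without CON replicate 5 and -0.68 without AFB1 replicate 2. It was also lost without AFB1_CUR replicate 3, 4 or 5, which share the estimate of the spread, with DESeq2 size factors, and without both libraries of high leukocyte score (-0.67). The proximal tubule score was also lower in AFB1, with a median of 6.97 against 7.64 in CON, and its part in the SLC7A9 values was not tested.

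The gene called in AFB1_CUR against AFB1 was CKB, the brain-type creatine kinase. Its FPKM was 73.1, 84.5, 98.6 and 32.8 in AFB1 replicates 2 to 5 and 32.1, 72.7, 42.7, 43.9 and 60.9 in AFB1_CUR replicates 1 to 5. AFB1 replicate 5 was low and AFB1_CUR replicate 2 was high, so these groups overlapped too. The log2 fold change was -0.59 (SE 0.25, edgeR unadjusted p = 0.0348, Benjamini-Hochberg adjusted p = 0.9999). Without AFB1 replicate 4 it was -0.38 and without AFB1_CUR replicate 1 it was -0.48, and the call was lost in both, as it was without AFB1 replicate 3 or AFB1_CUR replicate 3 or 4. With all 15 libraries it was -0.41 and not called, and with the replicate number as a block it was -0.49 and not called. The call was also lost with limma (-0.46) and when only the compared groups entered the model (-0.59).

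Across the 14 libraries, GAMT and GATM were the tested genes whose correlation with proximal tubule markers passed the adjustment. The score was the mean log2(FPKM + 1) of the 7 proximal tubule genes, and 12 pairs of a gene and a nephron segment score were tested. GAMT had a Pearson r of 0.774 with the proximal tubule score (n = 14, two-sided permutation p = 0.00136, adjusted p = 0.0163) and a Spearman rho of 0.833 (permutation p = 0.00036, adjusted p = 0.00432). GATM had a Pearson r of 0.711 (n = 14, permutation p = 0.00384, adjusted p = 0.0230) and a Spearman rho of 0.604 (permutation p = 0.0253, adjusted p = 0.152), so by rank it did not pass. ASS1 (r = 0.428), ASL (r = 0.421), NAGS (r = 0.326) and ARG2 (r = 0.215) did not pass over all 14 libraries, nor did any of the 6 with the score of the loop and collecting duct (r = -0.371 to 0.418). Whether the correlations differed between genes was not tested.

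Both relations lost their pass without some libraries, GATM more often than GAMT. For GAMT, r was 0.726 to 0.815 with each library left out. Without AFB1_CUR replicate 2 and CON replicate 5, the 2 farthest from the median score, r was 0.674 for GAMT and 0.517 for GATM, and ASS1 then had an r of 0.656. After the group means were removed, r was 0.740 for GAMT (adjusted permutation p = 0.0301) and 0.668 for GATM, which no longer passed (adjusted permutation p = 0.0549). Without AFB1_CUR replicate 2 alone neither passed (adjusted permutation p = 0.0508 and 0.0866, r = 0.726 and 0.625). Without it and AFB1 replicate 2, the libraries with the highest leukocyte scores, r was 0.660 and 0.521 and neither passed (adjusted permutation p = 0.161 and 0.198). The relation for GATM also failed the adjustment without CON replicate 5, AFB1_CUR replicate 1 or AFB1 replicate 2 (adjusted permutation p = 0.0625, 0.0536 and 0.0571). ASS1, by contrast, passed without CON replicate 5 (r = 0.722, adjusted permutation p = 0.0288). With the score of the loop and collecting duct, r for ASS1 went from -0.371 to -0.695 without AFB1_CUR replicate 2 (adjusted permutation p = 0.0508). Without AFB1_CUR replicates 2 and 5, the 2 farthest on that score, it was -0.719 for ASS1 and -0.621 for NAGS. The scores and the levels come from the same libraries and share their depth.

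**Figure D5:**
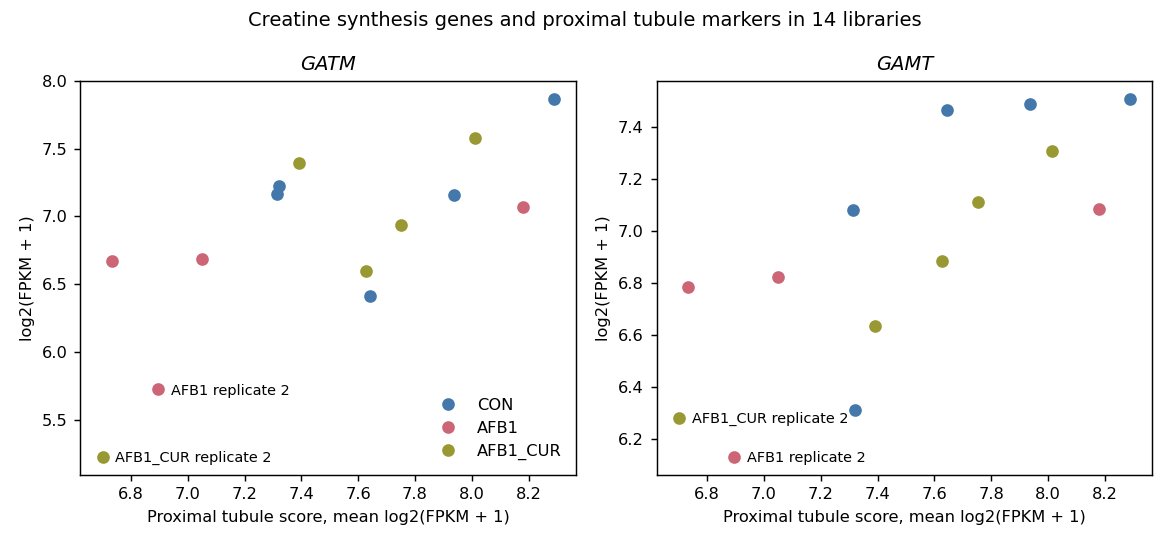
Log2(FPKM + 1) of GATM and GAMT (vertical axes) against the proximal tubule score (horizontal axes) in the 14 libraries, coloured by group. Points run from lower left to upper right (r = 0.711 and 0.774), and the libraries AFB1 replicate 2 and AFB1_CUR replicate 2 lie at the lower left.

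Of the 15 pairs among the 6 genes, 0 passed the adjustment. The closest were ASL with GAMT (r = 0.682, n = 14, permutation p = 0.00932, adjusted p = 0.126, rho = 0.648), GATM with GAMT (r = 0.599, adjusted permutation p = 0.126, rho = 0.442) and NAGS with ASS1 (r = 0.594, adjusted permutation p = 0.126, rho = 0.385). The last of these fell to 0.0887 without AFB1 replicate 5 and CON replicate 4, and that of GATM with GAMT to 0.159 without AFB1_CUR replicate 2 and AFB1 replicate 2, so both rested on those libraries. ASL with GAMT was 0.712 without AFB1_CUR replicate 2 and AFB1 replicate 3. The neighbouring enzymes ASS1 and ASL had an r of 0.231.

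The tested genes whose pattern over the 14 libraries was most like that of each gene, by Pearson r of log2(FPKM + 1), are given as a description. For GAMT they were SLC16A11 (r = 0.954) and ACAA1 (r = 0.924). For GATM they were UPP2 (r = 0.914) and SLC5A2 (r = 0.909), the apical sodium and glucose cotransporter, which is itself on the proximal tubule list. For ASS1 they were SLC66A2 (r = 0.914) and SLC22A5 (r = 0.908), the carnitine transporter. The values were lower for ASL, with SLX1A (r = 0.855) and GPAA1 (r = 0.843), for NAGS, with FANCF (r = 0.842) and ATP6V1C1 (r = 0.831), and for ARG2, with LOC105612547 (r = 0.834) and AMZ2 (r = 0.793). In AFB1 replicate 1, where GATM was at 359 FPKM, SLC5A2 was at 0.0399 and UPP2 at 5.66, against lowest values of 152 and 17.9 in the 14. ACAA1 was at 331 there, inside its range of 188 to 779, and SLC16A11 at 7.65, below its range of 51.3 to 133.7.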

How the data were processed

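RNA labelled as kidney from 15 sheep was sequenced, 5 libraries per group, and AFB1 replicate 1 is shown apart. Per the submitters' processing notes the tools named were cutadapt 1.9, HISAT2 2.2.1, StringTie 2.1.6, DESeq2 and edgeR. The authors removed adapters and low-quality reads, aligned the rest with HISAT2 and deposited raw read counts per gene. Beside them the authors deposited FPKM values, which correct for gene length and library size. The genome build is not given in the sources used here, but 99.6% of 24947 matched genes had the start and end of ARS-UI_Ramb_v3.0. No sequences were used.

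Groups were taken from the sample titles, because the treatment labels count upward within a group, and doses from the study's methods. The genes, lists, thresholds and the setting apart of AFB1 replicate 1 were chosen with earlier results of these data known. The text names all 9 genes in every library, the most abundant pathway gene of each kind, those called in any comparison, the largest rise and fall in AFB1 replicate 1, and the 2 genes most like each tested gene. Naming the further genes beyond 2-fold in that library, and SLC25A15, SLC14A1 and SLC14A2, was decided after the values were seen. The result of 1 pathway gene is not reported here, though it is in the counts of the list.

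Genes whose FPKM reached 1 in 4 or more of the 14 libraries (13394 genes, 6 of the 9) were tested on counts with edgeR 4.0.16 (TMM, quasi-likelihood test, 3 groups in 1 model, R 4.3.3), with Benjamini-Hochberg adjustment over all of them. The rule of p under 0.05 and fold change over 1.5 is that of the study. Alternatives were DESeq2 1.42.0, limma 3.58.1 on log2(FPKM + 1), DESeq2 size factors, no filter, all 15 libraries, only the compared groups, the replicate number as a block and each library left out. Correlations used 100000 resamples. The code was tested on simulated data. The p-values measure the spread between these libraries, each labelled as a separate sheep. The study kept its sheep in shared pens, which the labels used here do not give, so pens are not accounted for.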

Additional observations from a re-analysis of the deposited data

Results flagged for a closer look

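In 7 of 33 gene and group combinations, 1 library lay beyond Dixon's 95% limit. Chance passes this limit in about 1 of 20 groups of continuous values, a rate that does not apply to groups mostly at 0, and the AFB1 group was counted both with and without AFB1 replicate 1. In 6 of these it was AFB1 replicate 1 against the other AFB1 libraries, in FPKM: NAGS at 77.5, CPS1 at 411.7, OTC at 17.6, ARG1 at 231.3, GATM at 358.8 and GAMT at 333.1. These 6 describe the library already shown apart and are no further evidence on it. That library's hepatocyte score of 10.23 and proximal tubule score of 0.74 go against its kidney label. ASL, ASS1 and ARG2 did not pass the limit in the AFB1 group. The remaining value was CPS1 in CON, at 0.0390 in CON replicate 2 (17 counts) with the other 4 libraries at 0, where any single value above 0 passes the limit, so passing it says nothing here. CON replicate 2 also held 626 counts of ALB, the highest in CON.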

How the results depend on the processing

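Under 396 combinations of a gene's comparison and an alternative, 370 kept direction and call, 18 changed sign and 8 gained a call. The limits are 4 to 5 libraries a group, 95% intervals reaching over 1.5-fold to either side of the estimate for all 6 tested genes, and CPS1, OTC and ARG1 at or near 0 in 14 libraries. The causes of the changes below were not tested.

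Genes called in AFB1 against CON (238), AFB1_CUR against AFB1 (133) and AFB1_CUR against CON (235) became 669, 543 and 149 with all 15 libraries, 108, 86 and 82 with limma, and 867, 707 and 928 without the filter. Without both libraries with the highest leukocyte score, an alternative chosen after seeing the data, AFB1_CUR against AFB1 gave 231 and AFB1_CUR against CON gave 133. With each library left out they ran from 213 to 470 (without AFB1 replicate 5), from 128 to 288 (without AFB1 replicate 2) and from 131 (without AFB1_CUR replicate 2) to 335. Of the 9 genes, 0 were called, but 1, 1 and 0 with all 15 libraries (NAGS), 1, 2 and 0 without the filter, and 0 to 1 in each comparison with a library left out. The calls without the filter were OTC higher in AFB1 than CON, and CPS1 and OTC lower in AFB1_CUR than AFB1, which rest on the counts of AFB1 replicates 2 and 3.

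Signs turned with all 15 libraries for ASL (0.60), GATM (0.40) and GAMT (0.39) in AFB1 against CON and for GATM (-0.72) and GAMT (-0.79) in AFB1_CUR against AFB1. With a library left out, AFB1 against CON ran from -0.36 to 0.63 for NAGS and from -0.27 to 0.40 for ASS1. AFB1_CUR against AFB1 ran from -0.52 to 0.14 for ASS1, -0.33 to 0.20 for ASL, -0.13 to 0.36 for ARG2 and -0.11 to 0.27 for GAMT. AFB1_CUR against CON ran from -0.26 to 0.12 for ASS1, which was 0.030 without both libraries of high leukocyte score.

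The correlations past adjustment (2) were 1 with Spearman's rho and 1 with group means removed (GAMT in both), 0 without both of those libraries and 0 (without AFB1_CUR replicate 2) to 2 with a library left out, where without CON replicate 5 they were GAMT and ASS1. These alternatives were also chosen after seeing the data. Whether the replicate numbers pair the libraries was not settled. Of same-numbered pairs, 5 of 13 had deviations correlated over 0.1 (-0.27 to 0.55, median 0.07). With different numbers it was 13 of 52 (-0.54 to 0.37, median -0.02). The same-numbered pairs of replicate 2 were at 0.38, 0.39 and 0.55. With the replicate block no call of the 9 genes changed. Genes of the pathway list called lower went from 1 to 0 in AFB1_CUR against AFB1, and the share of all tested genes from 0.545% to 0.59%. In AFB1_CUR against CON they went from 0 to 2, and the share from 0.635% to 0.776%. The log2 fold change of GAMT in AFB1_CUR against AFB1 was -0.043 instead of 0.08.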
